A study of Mus musculus with 8 samples.

Results

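The genes described here code for the contractile apparatus that smooth muscle cells build and that fibroblasts build when they become myofibroblasts. The set was chosen by name, with earlier results of these data known. It holds 10 genes of the 16593 named by the probes: Actg2, Acta2, Acta1, Cnn1, Tagln, Myl9, Smtn, Tpm1, Tpm2 and Cald1. All probes annotated to these symbols were read, which gave 17 of the 25697 probes on the array. They stood for 9 genes, and no expression value of Myl9, a regulatory light chain of myosin, was analysed here. Of the 17 probes, 16 had a mean above the median of all probe means, 7.73, and were tested among 12848 such probes. Cnn1 was the gene that did not pass.

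The arrays were Illumina mouse bead arrays, 8 in all, read from mouse embryonic fibroblasts (MEFs) in 4 groups of 2. KI polysomal RNA and KI total RNA came from MEFs with a knock-in of EIF4E, the protein that binds the cap of an mRNA, in a form that cannot be phosphorylated. WT polysomal RNA and WT total RNA came from wild-type MEFs. Polysomal RNA is the pool of mRNA carrying more than 3 ribosomes, and total RNA is cytoplasmic. The MEFs of both genotypes came from embryos at day 14.5, had been immortalised by passage, and grew in DMEM with 10% fetal bovine serum, and 250 ng of each RNA was labelled. The 2 replicates are separate RNA isolations from 1 pair of lines, so an effect of the genotype and one of the line cannot be told apart, and the p-values measure only the spread between isolations.

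As background, smooth muscle contracts when myosin pulls on thin filaments of smooth muscle actin, with tropomyosin, caldesmon and calponin lying along those filaments. Fibroblasts in culture and in wounds take up part of this apparatus, and alpha smooth muscle actin in their stress fibres is the usual mark of a myofibroblast. Many of these genes carry CArG boxes, the sites bound by serum response factor (SRF), and respond to serum, TGF-beta and actin assembly.

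The values are the authors' processed signal, taken here as log2, and all differences are on that scale. The log base, background correction and normalisation that the authors used are not given in the sources at hand, so folds hold only for log2 values. Array medians lay between 7.69 and 7.73, so a value near 7.7 is at the bottom of the range and a difference from it is understated. The number of arrays limits the precision. Errors beside differences are limma standard errors, and adjusted p-values cover all 12848 probes, with 0.05 as the threshold.

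The array labelled WT total replicate 2 differed from the other WT arrays in some genes. It read 9.80 for Krt19, an epithelial keratin, and 9.85 for Col2a1, a cartilage collagen, while the other 7 arrays lay at 8.32 or below for Krt19 and at 7.85 or below for Col2a1. Its correlation across all probes was 0.982 with KI total replicate 2 and 0.970 with WT total replicate 1, but the total arrays as a set lay between 0.965 and 0.982, and by this measure it was not the one farthest from the rest. Where a difference over 0.5 given below for a contractile gene moves by over 1.5 times without this array, its value without it is given.

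Actin genes held the largest differences between the lines among the 16 probes. Actg2, the gamma actin of visceral smooth muscle, was read by the probe ILMN_2839313. In polysomal RNA it gave 13.91 and 13.33 in KI, against 9.28 and 8.62 in WT. In total RNA it gave 13.93 and 12.90 in KI, against 9.38 and 11.29 in WT. Every KI array lay above every WT array in each RNA type, and WT total replicate 2 held the highest WT value. KI exceeded WT by 4.66 ± 0.69 in polysomal RNA (95% interval 2.96 to 6.37) and by 3.08 ± 0.69 in total RNA (95% interval 1.37 to 4.78). The polysomal difference equals 25.3-fold and the total one 8.44-fold if the scale is log2.

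Neither Actg2 difference passed the threshold in limma, at an adjusted p of 0.122 in polysomal RNA and 0.334 in total RNA. Under other settings the polysomal adjusted p in limma was 0.181 with no filter on dim probes and 0.113 with 1 probe per gene. It was 0.106 after quantile normalization and 0.144 with the replicate number as a block. With any 1 polysomal array left out the difference was 4.34 to 4.99 and did not pass. The polysomal difference did pass when only brighter probes were tested (adjusted p = 0.00736), after a background was subtracted (adjusted p = 0.0234), and when either WT total array was left out of the shared spread (adjusted p = 0.0409). Without WT total replicate 2 the difference in total RNA was 4.03 (adjusted p = 0.0721). Between isolations of the same number, KI exceeded WT by 4.63 and 4.70 in polysomal RNA and by 4.55 and 1.61 in total RNA. In RNA from whole cultures, fewer cells with the transcript and less of it per cell cannot be told apart.

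Acta2, the alpha smooth muscle actin gene, was among the strongest signals on the array, and its 4 probes did not read the same difference. The brightest, ILMN_2693895, ranked between 6 and 60 from the top on the 8 arrays, whose highest values were 15.15 to 15.80. It gave 15.17 and 15.37 in KI polysomal RNA, against 15.39 and 14.53 in WT polysomal RNA. In total RNA it gave 15.64 and 14.94 in KI, against 14.95 and 14.99 in WT, so the lines overlapped in both RNA types. Its differences were 0.31 ± 0.34 in polysomal and 0.32 ± 0.34 in total RNA.

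The other 3 Acta2 probes lay lower on the scale, and their arrays did not overlap between the lines. ILMN_2710353 gave 14.42 and 13.93 in KI polysomal RNA, against 13.26 and 11.28 in WT polysomal RNA. ILMN_2710354 gave 15.08 and 14.74 in KI polysomal RNA, against 14.11 and 12.10 in WT polysomal RNA. ILMN_2923445 gave 15.05 and 14.68 in KI polysomal RNA, against 14.41 and 12.87 in WT polysomal RNA. On each of these probes, as on the brightest, the lowest of the 8 arrays was WT polysomal replicate 2.

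KI exceeded WT in polysomal RNA by 1.91 ± 0.61, 1.80 ± 0.61 and 1.22 ± 0.49 on these 3 probes, with adjusted p-values of 0.333, 0.355 and 0.444 in limma. Without WT polysomal replicate 2 the same differences were 0.92, 0.80 and 0.45, and that of the brightest probe was -0.12. In total RNA ILMN_2710353 gave 13.77 and 13.47 in KI, against 12.89 and 13.02 in WT. The 3 probes gave differences there of 0.66 ± 0.61, 0.63 ± 0.61 and 0.46 ± 0.49, none past the threshold (adjusted p 0.825 to 0.846).

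The gap between ILMN_2710354 and ILMN_2710353, which lie close in signal, was nearly the same on every array, 0.66 and 0.80 in KI polysomal, 0.85 and 0.82 in WT polysomal, 0.62 and 0.74 in KI total, and 0.71 and 0.70 in WT total RNA. The gap between ILMN_2693895 and ILMN_2710353 was not. It was 0.75 and 1.43 in KI polysomal RNA, against 2.13 and 3.25 in WT polysomal RNA, and 1.87 and 1.47 in KI total RNA, against 2.06 and 1.97 in WT total RNA. Whether the top of the scale limited the brightest probe was not tested.

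**Figure D1:**
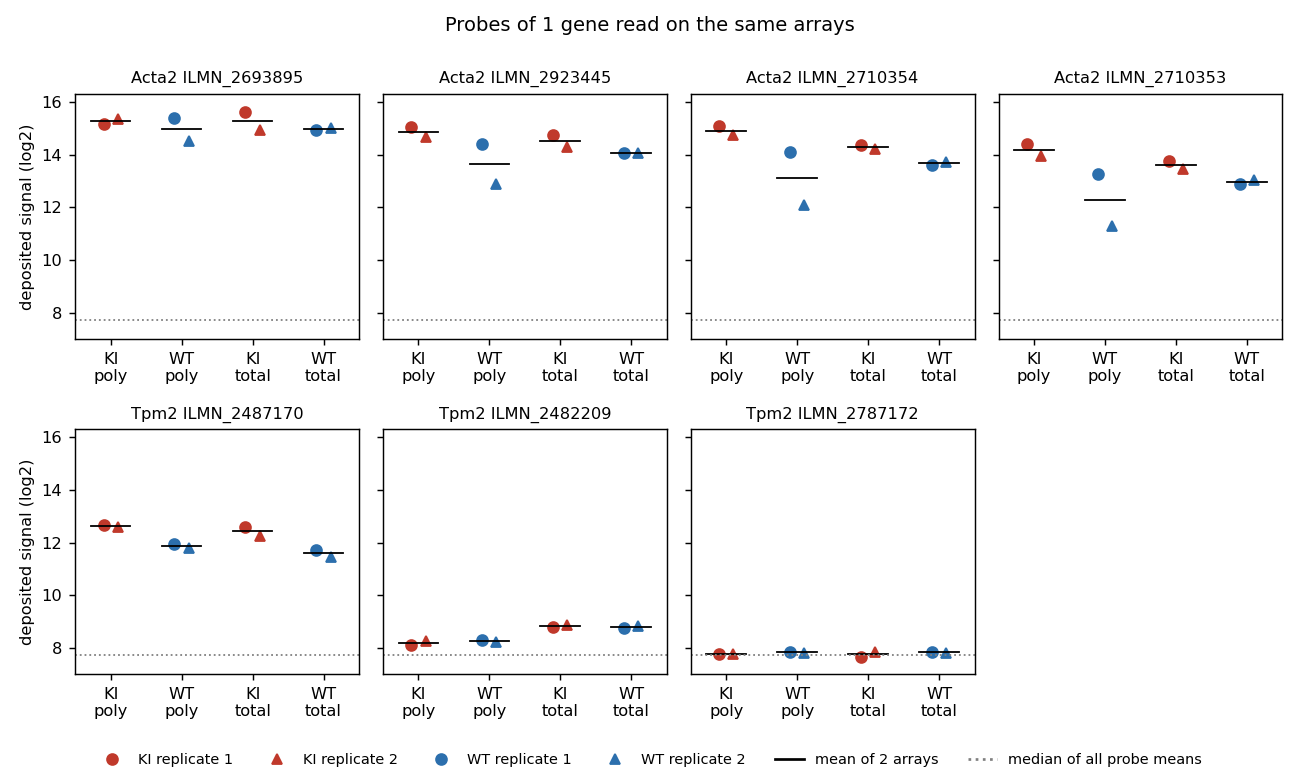
Deposited signal (log2) of the 4 Acta2 probes (upper row) and the 3 Tpm2 probes (lower row) on the 8 arrays, by line and RNA type; points are arrays, bars the means of 2 arrays, and the dotted line the median of all probe means. The brightest Acta2 probe overlaps between the lines, and all 4 are lowest on WT polysomal replicate 2. Of the Tpm2 probes the brightest separates KI from WT in both RNA types.

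Acta1, the alpha actin of skeletal muscle, had 1 probe, ILMN_2738825. In polysomal RNA it gave 8.93 and 10.15 in KI, against 7.76 and 7.65 in WT, which is the bottom of the range. Total RNA values were 9.26 and 10.71 in KI, against 7.91 and 9.42 in WT. The lines did not overlap in polysomal RNA. In total RNA they overlapped through WT total replicate 2 at 9.42, and the other WT array lay below both KI arrays. KI exceeded WT by 1.83 ± 0.71 in polysomal RNA (adjusted p = 0.427, limma) and by 1.32 ± 0.71 in total RNA (adjusted p = 0.677, limma). The total RNA difference was 2.08 without WT total replicate 2 (adjusted p = 0.305) and 0.57 without WT total replicate 1 (adjusted p = 0.885). Replicate 2 exceeded replicate 1 by 1.45 in KI total, 1.51 in WT total and 1.22 in KI polysomal RNA, and by -0.10 in WT polysomal RNA. Markers of striated muscle mostly stayed at the bottom, though Tnnc1 read 8.32 to 8.52 in total RNA and 7.70 to 7.76 in polysomal RNA. Of 20 such genes with a probe, 16 had all probes at or below the median, Myod1, Ckm and Actc1 among them, and the mean of the list lay between 7.67 and 7.71 on all 8 arrays. Limma called 0 of their 4 tested probes between the lines, and 0 had an unadjusted p under 0.05.

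The promoters of Acta2 and Acta1 are shown for their matches to the SRF box, and that of Smtn as a window with no such match. The windows of Cnn1, Tpm1, Tpm2 and Cald1 held none either. Whether such matches bear on the differences between the lines was not tested. The sequences are from RefSeq (GRCm38.p6), 250 bases before to 50 bases after the annotated start, on the minus strand of chr19:34255324-34255623 for Acta2, chr8:123894726-123895025 for Acta1 and chr11:3539243-3539542 for Smtn. Capitals mark matches to a relaxed CArG box: CC, then 6 bases of which at least 5 are A or T, then GG, which reads the same on both strands.
Acta2: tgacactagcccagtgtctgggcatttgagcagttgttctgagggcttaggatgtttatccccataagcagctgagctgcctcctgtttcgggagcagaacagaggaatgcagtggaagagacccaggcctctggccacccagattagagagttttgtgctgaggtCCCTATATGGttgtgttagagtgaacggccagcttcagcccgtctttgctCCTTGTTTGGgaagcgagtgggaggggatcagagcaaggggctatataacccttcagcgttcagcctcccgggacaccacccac
Acta1: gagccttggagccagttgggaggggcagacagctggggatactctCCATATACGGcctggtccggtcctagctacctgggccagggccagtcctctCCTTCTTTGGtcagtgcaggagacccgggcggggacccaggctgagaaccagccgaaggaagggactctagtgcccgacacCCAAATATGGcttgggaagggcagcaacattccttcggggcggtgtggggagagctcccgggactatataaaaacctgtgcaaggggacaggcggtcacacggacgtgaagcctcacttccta
Smtn: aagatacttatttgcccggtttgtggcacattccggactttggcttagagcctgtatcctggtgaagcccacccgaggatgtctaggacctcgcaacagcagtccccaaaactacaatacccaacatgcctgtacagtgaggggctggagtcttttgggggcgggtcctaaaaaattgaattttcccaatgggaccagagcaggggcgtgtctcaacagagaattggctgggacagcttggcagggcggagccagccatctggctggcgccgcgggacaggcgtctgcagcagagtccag

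The Acta2 window held 2 relaxed matches, whose first letters lie 84 and 34 bases before the start. The Acta1 window held 3, at 205, 154 and 73 bases before the start, and the last, CCAAATATGG, is also a strict match with all 6 inner bases A or T. Myl9 held a strict match 161 bases and a relaxed one 99 bases before its start. A window was at hand for 8 of the 10 genes, not for Actg2 or Tagln, and 3 of these 8 had a relaxed match, against 9.98% of 32851 mouse windows. A strict match was in 2 of the 8 and in 1.63% of all windows. CATTCC, the core of the MCAT element, was found on either strand in 5 of the 8 and in 14.7% of all windows. The 8 were counted as genes, with 9 windows between them, while the percentages count windows, so the 2 are not on the same unit. These are matches of letters, and no binding was measured.

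Tropomyosins wind along the actin filament. Tpm2, beta tropomyosin, had 3 probes. The brightest, ILMN_2487170, gave 12.69 and 12.58 in KI polysomal RNA, against 11.93 and 11.80 in WT polysomal RNA. In total RNA it gave 12.60 and 12.27 in KI, against 11.73 and 11.46 in WT. All 4 KI arrays lay above all 4 WT arrays. KI exceeded WT by 0.76 ± 0.15 in polysomal RNA (95% interval 0.40 to 1.13, unadjusted p = 0.00244) and by 0.84 ± 0.15 in total RNA (95% interval 0.47 to 1.21, unadjusted p = 0.00156). In limma neither passed after adjustment (adjusted p = 0.170 and 0.224).

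The other Tpm2 probes did not share that difference. ILMN_2482209 gave 8.11 and 8.29 in KI polysomal RNA, against 8.32 and 8.24 in WT polysomal RNA, and 8.81 and 8.86 in KI total RNA, against 8.75 and 8.82 in WT total RNA. Its KI minus WT differences were -0.08 ± 0.09 in polysomal and 0.05 ± 0.09 in total RNA. ILMN_2787172 lay between 7.68 and 7.86 on all arrays, near the bottom of the range. Which transcripts the 3 probes read is not given in the sources used here.

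Tpm1, alpha tropomyosin, gave 13.83 and 13.81 in KI polysomal RNA, against 13.81 and 13.24 in WT polysomal RNA, on its probe ILMN_3007072. Its total RNA values were 13.15 and 12.28 in KI, against 12.88 and 11.41 in WT. The lines overlapped in both RNA types, and replicate 2 was the lower one in every group. The differences were 0.29 ± 0.53 in polysomal and 0.57 ± 0.53 in total RNA, and without WT total replicate 2 the difference in total RNA was -0.17, and without WT total replicate 1 it was 1.30.

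Smtn codes for smoothelin, an actin-binding protein of contractile smooth muscle, and its 3 probes read the same direction. ILMN_2695181 gave 10.68 and 10.96 in KI polysomal RNA, against 10.07 and 9.81 in WT polysomal RNA. In total RNA it gave 11.23 and 11.66 in KI, against 10.50 and 10.67 in WT. All KI arrays lay above the WT arrays of the same RNA type. KI exceeded WT by 0.88 ± 0.19 in polysomal RNA (adjusted p = 0.188, limma) and by 0.86 ± 0.19 in total RNA (adjusted p = 0.316, limma).

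The second Smtn probe, ILMN_2955973, gave 0.72 ± 0.18 in polysomal and 0.71 ± 0.18 in total RNA, and the dimmest, ILMN_2621581, gave 0.40 ± 0.13 and 0.37 ± 0.13. None passed the threshold (adjusted p 0.234 to 0.514). The KI and WT arrays of these probes did not overlap in either RNA type.

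Tagln codes for the actin-binding protein transgelin. Its probe, ILMN_1243652, gave 9.92 and 10.17 in KI polysomal RNA, against 9.55 and 8.22 in WT polysomal RNA. In total RNA the values were 10.28 and 10.41 in KI, against 9.84 and 9.91 in WT. The lines did not overlap, and WT polysomal replicate 2 was again the lowest array. KI exceeded WT by 1.16 ± 0.41 in polysomal RNA (adjusted p = 0.377, limma) and by 0.47 ± 0.41 in total RNA (adjusted p = 0.811, limma). Without WT polysomal replicate 2 the polysomal difference was 0.50.

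The remaining thin-filament genes were dim. Cnn1, the smooth muscle calponin, lay between 7.61 and 7.70 on all 8 arrays, at the bottom of the range, and was not tested. Cald1, caldesmon, had 2 probes that lay between 8.14 and 8.64 in polysomal RNA and between 7.67 and 7.86 in total RNA. Their KI minus WT differences were 0.23 ± 0.11 and 0.03 ± 0.08 in polysomal RNA and 0.03 ± 0.11 and -0.12 ± 0.08 in total RNA.

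**Figure D2:**
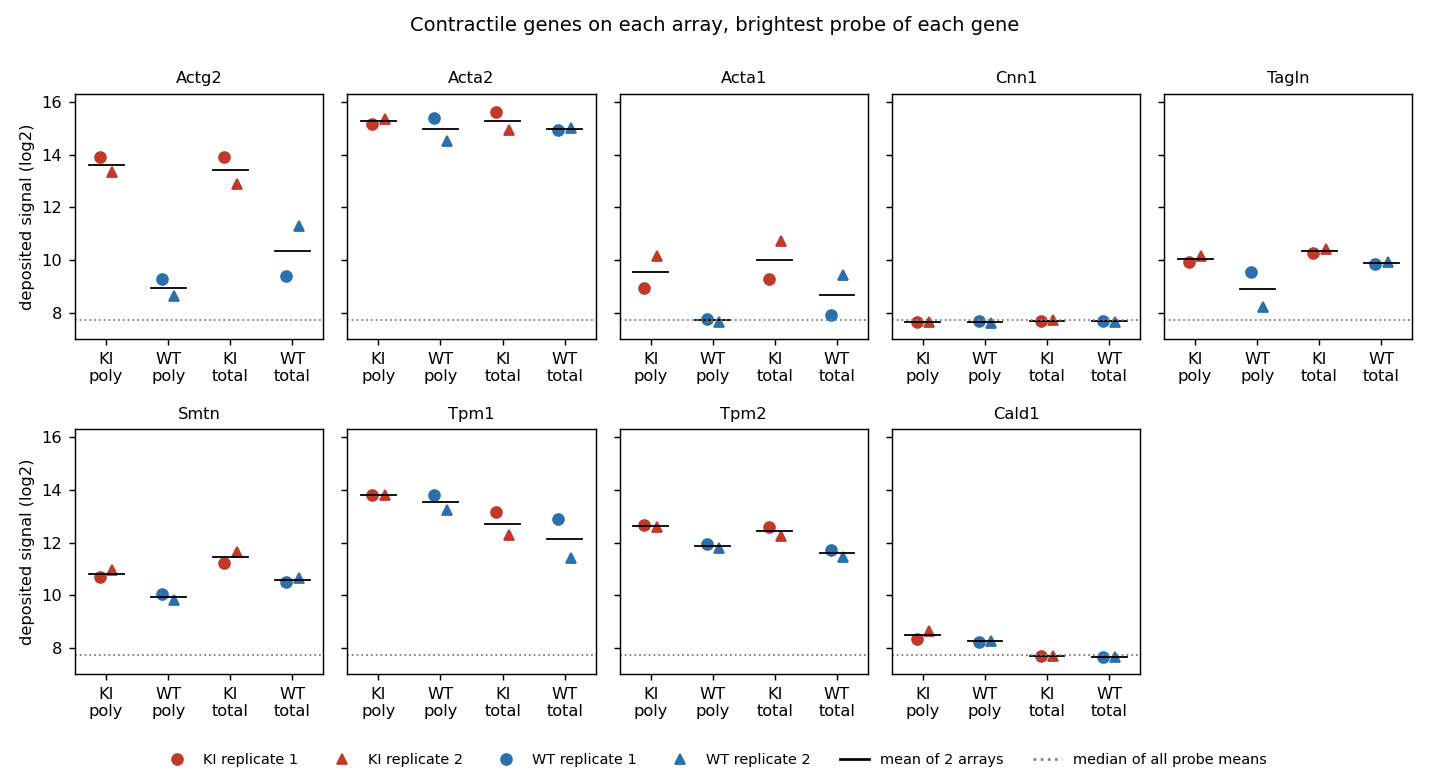
Deposited signal (log2) of the brightest probe of each of the 9 measured genes on the 8 arrays, in KI and WT polysomal RNA and in KI and WT total RNA; points are arrays, bars the means of 2 arrays, and the dotted line the median of all probe means. Actg2 reads 12.90 to 13.93 on the KI arrays and 8.62 to 11.29 on the WT arrays, Tpm2 and Smtn are separated by less than 1 unit, and Cnn1 lies at the bottom on all arrays.

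Over all 16 tested probes, the KI minus WT difference had a median of 0.74 in polysomal RNA, against -0.01 over all 12848 probes. In total RNA the median was 0.52, against -0.04 over all probes. The difference was above 0 for 14 of the 16 probes in each RNA type, against 45.5% of all probes in polysomal and 39.9% in total RNA. Probes of 1 gene are not independent, and the 16 stand for 8 genes. The genes were chosen with earlier results of these data known, so the shares here and in the next paragraphs are no independent test.

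In polysomal RNA limma called 0 of the 16 at the threshold, against 0.117% of all probes, and 10 had an unadjusted p under 0.05, all higher in KI, against 5.55% of all probes higher at that level. In total RNA limma called 0 of the 16, against 0.07% of all probes, and 5 had an unadjusted p under 0.05, all higher in KI, against 4.38%. The arrays of the lines did not overlap for 12 probes higher in KI and 1 lower in polysomal RNA, where 23% and 28.9% of all probes lay so. In total RNA this held for 10 probes higher in KI and 1 lower, where 12.6% and 18.8% of all probes lay so. The lower probes were ILMN_2787172 of Tpm2 and ILMN_2804261 of Cald1, both near the bottom of the range.

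Leaving out WT polysomal replicate 2 moved the polysomal median most among the 8 arrays, to 0.47, with 7 probes at an unadjusted p under 0.05. The count at that level was lowest, 5, without KI polysomal replicate 2, where the median was 0.65, and it was 7 without KI polysomal replicate 1 and 8 or 9 without any other array. Without WT total replicate 2 the median in total RNA was 0.50, and 6 probes had an unadjusted p under 0.05. Limma called 0 of the 16 in each of these cases except without either WT total array, where it called Actg2 in polysomal RNA.

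**Figure D3:**
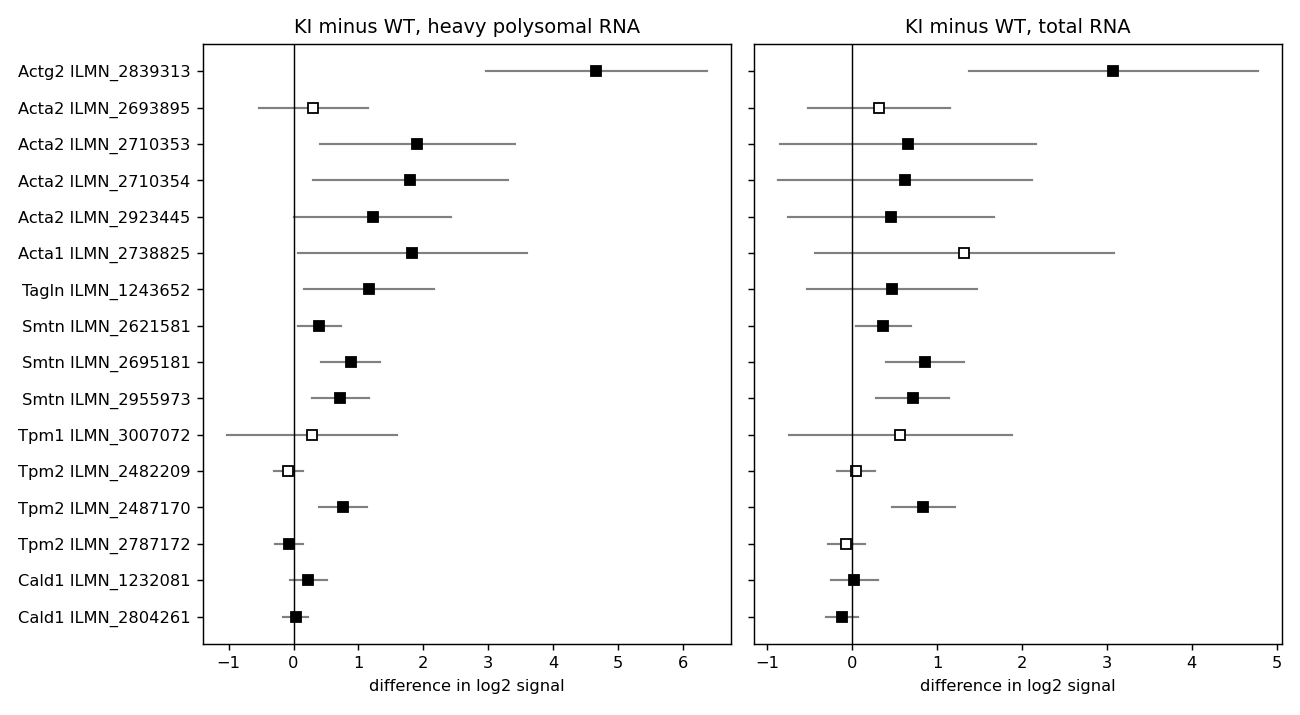
Difference in log2 signal, KI minus WT, of the 16 tested probes in polysomal RNA (left) and total RNA (right), with 95% limma intervals; filled squares mark probes whose KI and WT arrays do not overlap. Actg2 has the largest difference in both panels (4.66 and 3.08), and Tpm1, the brightest Acta2 probe and 1 Tpm2 probe overlap in both.

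Polysomal RNA was next set against total RNA of the same line. For Actg2, Acta1 and Tagln, polysomal minus total RNA lay between -0.56 and 0.43 in 3 of the 4 cultures. It lay between -2.67 and -1.70 in WT culture 2. A culture here is the polysomal and total RNA of a line with the same replicate number, paired by label. Deviations of the paired arrays from their group means correlated at 0.04 in WT, against 0.56 in KI. Polysomal minus total RNA for Actg2 was -0.02 and 0.43 in the KI cultures, against -0.10 and -2.67 in the WT cultures. For Tagln it was -0.36 and -0.24 in KI, against -0.29 and -1.70 in WT. Acta1 gave -0.33 and -0.56 in KI, against -0.15 and -1.76 in WT.

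The WT means were -1.38 for Actg2, -0.95 for Acta1 and -0.996 for Tagln, none past the threshold in limma. Without WT total replicate 2 they were -0.43, -0.20 and -0.96. Without WT total replicate 1 that of Actg2 was -2.34 (adjusted p = 0.0281), and without WT polysomal replicate 1 that of Tagln was -1.66 (adjusted p = 0.0113), while without WT polysomal replicate 2 that of Tagln was -0.33.

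The same culture stood out on 3 of the 4 Acta2 probes. The brightest, ILMN_2693895, gave -0.46 and 0.43 in KI, against 0.44 and -0.46 in WT, so that WT culture 2 matched KI culture 1. The probe ILMN_2710353 gave 0.65 and 0.47 in KI, against 0.37 and -1.74 in WT, and the probes ILMN_2710354 and ILMN_2923445 gave -1.63 and -1.18 in WT culture 2 and 0.31 to 0.70 in the other 3 cultures. The polysomal array of WT culture 2 correlated at 0.991 with the other WT polysomal array. Without WT polysomal replicate 2 the 4 Acta2 probes gave WT differences of 0.30 to 0.45, in the opposite direction to those with it, -0.69 to -0.01.

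Tropomyosins read higher in polysomal RNA in all 4 cultures on their brightest probes, Tpm1 by more than Tpm2. Tpm1 polysomal minus total RNA was 0.68 and 1.52 in KI, against 0.93 and 1.83 in WT. The mean differences were 1.10 ± 0.53 in KI and 1.38 ± 0.53 in WT (adjusted p = 0.159 and 0.0907, limma). With the culture as a block they were unchanged in size and the WT one passed, at an adjusted p of 0.0310, with 0.0534 in KI. With no block, the WT difference was 0.65 without WT total replicate 2 (adjusted p = 0.324) and 2.11 without WT total replicate 1 (adjusted p = 0.0187).

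Caldesmon rose in polysomal RNA in both lines. The probe ILMN_1232081 gave 8.33 and 8.64 in KI polysomal RNA, against 7.70 and 7.69 in KI total RNA, a difference of 0.79 ± 0.11 (adjusted p = 0.00553, limma). In WT it gave 8.24 and 8.27 in polysomal RNA, against 7.67 and 7.68 in total RNA, a difference of 0.58 ± 0.11 (adjusted p = 0.0125, limma). The probe ILMN_2804261 rose by 0.52 ± 0.08 in KI and by 0.37 ± 0.08 in WT. Both probes were at the bottom of the range on the total RNA arrays, so the sizes are understated. On every total RNA array ILMN_1232081 read below the filter value of 7.73, and it entered the test only through its polysomal values. The KI total RNA values of ILMN_2804261 were below it as well. These calls are therefore not independent of the filter. Both KI calls held with any 1 array left out. The WT calls of both were lost without either WT polysomal array (adjusted p 0.0594 to 0.0860, limma), and that of ILMN_1232081 without WT total replicate 2 (adjusted p = 0.0503).

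Smoothelin fell in polysomal RNA in both lines, as did the dimmer measured Tpm2 probe ILMN_2482209. The 3 Smtn probes gave -0.70 to -0.47 in KI (adjusted p 0.0269 to 0.0446, limma) and -0.71 to -0.50 in WT (adjusted p 0.0252 to 0.0403, limma). The Tpm2 probe gave -0.63 ± 0.09 in KI and -0.50 ± 0.09 in WT (adjusted p = 0.00549 and 0.00999, limma). The WT call of this Tpm2 probe was lost without WT polysomal replicate 2 (adjusted p = 0.0677, limma) and with the stricter filter (adjusted p = 0.0514). The Smtn calls were weak: leaving out 1 array at a time gave adjusted p-values up to 0.191 in KI, with all 3 calls lost without KI total replicate 2 or without any 1 of the 4 polysomal arrays. In WT it gave up to 0.189, with all 3 lost without WT total replicate 2 or either WT polysomal array. With no filter on dim probes all 6 were lost (adjusted p 0.0589 to 0.0965). The brightest Tpm2 probe gave 0.09 and 0.31 in KI, against 0.20 and 0.34 in WT, so probes of 1 gene differed in direction here too.

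**Figure D4:**
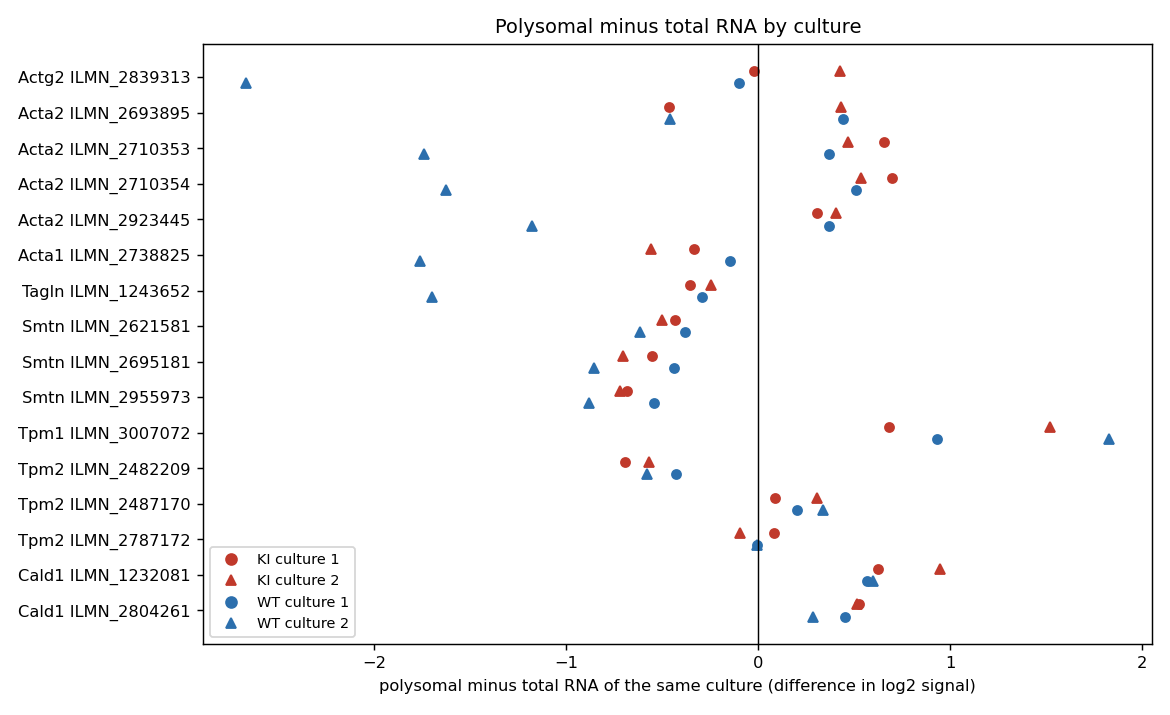
Polysomal minus total RNA of the same culture (difference in log2 signal) for the 16 tested probes, with 1 point for each of the 2 KI and 2 WT cultures. Cultures are paired by label. Actg2, Tagln, Acta1 and 3 Acta2 probes have WT culture 2 at -2.67 to -1.18, apart from the other 3 cultures, while Cald1 and Tpm1 lie above 0 and Smtn below 0 in all 4.

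Of the 16 probes, limma called 2 higher and 4 lower in polysomal RNA in KI. Over all probes 36.9% were called in KI, 21% higher and 15.9% lower. In WT limma also called 2 higher and 4 lower, and over all probes 37.5%, 20.8% higher and 16.7% lower. The share called among the contractile genes was thus near that of all probes in both lines. The medians over the 16 were 0.10 in KI, against 0.02 over all probes, and -0.50 in WT, against -0.01. Without WT polysomal replicate 2 the WT median was 0.16 and limma called 0 of the 16 in WT, with 5 at an unadjusted p under 0.05, where the fit to all arrays had 7 of the 16 and 48.4% of all probes.

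The loading difference, polysomal minus total RNA in KI less that in WT, asks whether ribosome loading differs between the lines beyond the amount of mRNA. Limma called 0 of the 16 probes and 0 of all 12848 (0%), and 0 of the 16 had an unadjusted p under 0.05, where 2.34% of all probes did. Actg2 had the largest, 1.59 ± 0.98 (95% interval -0.82 to 3.99, unadjusted p = 0.157). It was 0.63 without WT total replicate 2 and 2.54 without WT total replicate 1. The median over the 16 was 0.09, against 0.02 over all probes. The 3 dimmer Acta2 probes gave 0.76 to 1.25, and without WT polysomal replicate 2 the value of ILMN_2923445 was -0.0095. With an interval this wide, a difference of the size seen for Actg2 was not detectable on its probe. The intervals of Acta1 (-1.98 to 3.00) and Acta2 ILMN_2710353 (-0.88 to 3.38) were wide too. Others were narrower, such as -0.63 to 0.67 for Smtn ILMN_2695181 and -0.31 to 0.31 for Tpm2 ILMN_2787172.

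Beside the counts of other lists given next, the shares of all probes with an unadjusted p under 0.05 were 5.55% higher and 5.56% lower in KI in polysomal RNA, and 4.38% higher and 4.34% lower in total RNA. The rest of the contractile apparatus was read from a list of 38 genes. It held smooth muscle and non-muscle myosins, non-muscle actins, other tropomyosins and calponins, actin bundlers, focal adhesion proteins and myosin regulators, among others. Of these genes 31 had a probe and 23 had one above the median. Myh11, the smooth muscle myosin heavy chain, Mylk, the myosin light chain kinase, Synpo2 and Pdlim3 had all probes at or below it. In polysomal RNA limma called 0 of the 30 tested probes, and 11 had an unadjusted p under 0.05, all higher in KI; in total RNA it called 0, with 7 at that level, all higher in KI. The median differences were 0.27 and 0.28.

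Palld, the stress-fibre scaffold palladin, came nearest to the threshold, at 11.03 and 11.40 in KI polysomal RNA, against 9.91 and 9.88 in WT polysomal RNA. Its difference was 1.32 ± 0.13 in polysomal RNA (adjusted p = 0.0507, limma) and 0.54 ± 0.13 in total RNA (adjusted p = 0.349, limma). Actn4, an actin cross-linking alpha-actinin, gave 0.94 ± 0.25 in polysomal and 1.15 ± 0.25 in total RNA. Vcl, the focal adhesion protein vinculin, gave 0.55 ± 0.16 and 0.58 ± 0.16, and Fhl2, a LIM-domain cofactor, gave 0.91 ± 0.21 and 0.63 ± 0.21. For these 4 genes, named for the smallest p-values of the list, every KI array lay above the WT arrays of the same RNA type. Of the 30 tested probes of the list, 17 were separated higher in KI and 3 lower in polysomal RNA. In total RNA 12 were separated higher and 2 lower. The shares of all probes were 23% higher and 28.9% lower in polysomal RNA, and 12.6% and 18.8% in total RNA.

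Regulators of the contractile programme (27 genes, 24 with a probe, 30 probes tested) had median differences of 0.08 in polysomal and 0.04 in total RNA. Limma called 0 in each, with 4 higher and 4 lower in KI at an unadjusted p under 0.05 in polysomal RNA and 1 higher and 2 lower in total RNA. Tgfbr2, a TGF-beta receptor, gave 1.32 ± 0.25 in polysomal RNA, and Prrx1, a mesenchymal homeobox factor, gave -0.85 ± 0.13 (adjusted p = 0.167 and 0.122, limma). Klf5 gave 1.03 ± 0.18 in polysomal RNA (adjusted p = 0.144, limma). Myocd, the smooth muscle coactivator of SRF, had all probes at or below the median.

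Genes that respond to SRF or TGF-beta (16 genes, 14 with a probe, 18 probes tested) had medians of 0.51 in polysomal and 0.40 in total RNA. Limma called 0 in each, with 3 higher and 1 lower in KI at an unadjusted p under 0.05 in polysomal RNA and 4 higher and 2 lower in total RNA. Col4a1, a basement membrane collagen, gave 12.59 and 12.58 in KI polysomal RNA, against 10.67 and 10.76 in WT polysomal RNA, a difference of 1.87 ± 0.28 (adjusted p = 0.122, limma). Col1a1, a chain of type I collagen, gave 1.47 ± 0.41 in polysomal and 1.34 ± 0.41 in total RNA.

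Markers of other cell types were read beside these genes, and limma called 0 of their probes between the lines. Of 9 pericyte and mural genes 5 had all probes at or below the median, Rgs5 and Notch3 among them, and the list mean was 7.85 to 7.99 in KI polysomal and 7.79 to 7.86 in WT polysomal RNA, and 7.95 to 8.03 in KI total and 7.89 to 8.12 in WT total RNA. Cspg4, the NG2 proteoglycan of pericytes, gave 9.11 and 8.72 in KI total RNA, against 7.72 and 8.51 in WT total RNA, a difference of 0.80 ± 0.31 (adjusted p = 0.559, limma), and was the 1 probe of the 6 tested with an unadjusted p under 0.05 in total RNA; in polysomal RNA there were 0. The list did not share its direction in total RNA, where 2 of the 6 probes lay above 0 and 4 below, with a median of -0.23. Pdgfrb gave 0.46 ± 0.22 there, Mcam -0.42 ± 0.24 and Des -0.16 ± 0.12. In polysomal RNA 5 lay above 0 and 1 below, with a median of 0.17. The part of mural cells in the actin differences was not tested.

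Fibroblast markers were bright: 10 of 11 genes with a probe passed the filter, Lum being the exception, and the list mean was 10.34 to 10.40 in KI polysomal and 10.35 to 10.46 in WT polysomal RNA, and 10.00 to 10.15 in KI total and 9.87 to 10.07 in WT total RNA. At an unadjusted p under 0.05, 5 of its 11 tested probes were higher and 3 lower in KI in polysomal RNA, and 3 higher and 1 lower in total RNA. Dcn, the matrix proteoglycan decorin, gave 9.17 and 9.09 in KI polysomal RNA, against 12.55 and 12.91 in WT polysomal RNA, a difference of -3.60 ± 0.79 (unadjusted p = 0.00421, adjusted p = 0.202, limma). In total RNA it gave 7.80 and 7.83 in KI, against 10.34 and 7.68 in WT, so the lines overlapped there. Thy1, a fibroblast surface protein, gave 1.65 ± 0.37 and Pdgfra, a PDGF receptor, -1.37 ± 0.25 in polysomal RNA, neither past the threshold in limma (adjusted p = 0.209 and 0.149). Col3a1 gave 1.08 ± 0.22 in polysomal RNA (adjusted p = 0.183, limma).

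The lists of endothelial, epithelial, macrophage, and adipocyte and chondrocyte markers lay near the bottom, with list means of 7.71 to 8.25 on the 8 arrays. The epithelial mean of 8.25 and the adipocyte and chondrocyte mean of 8.20 were those of WT total replicate 2, and every other mean of these lists was 7.89 or below. Their defining genes Pecam1, Cdh5, Cdh1, Ptprc, Adipoq and Acan had all probes at or below the median. Other members read higher. Cd14, of the macrophage list, gave 9.12 to 9.89 over the 8 arrays, and Cd34, of the endothelial list, 8.04 to 9.43. Krt14 reached 9.10 on WT total replicate 2, and Sox9 reached 8.70 on WT total replicate 1. Over these 4 lists, 2 probes had an unadjusted p under 0.05 between the lines, 1 endothelial higher and 1 epithelial lower in KI, both in total RNA.

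Likeness to Actg2 was measured over the 8 arrays as the root mean square difference between profiles centred on their own means, for 8831 other genes with a median of 2.11. The nearest were Ndn at 0.67, Slc7a3 at 0.82, Igfbp4 at 0.83, Crip2 at 0.84 and Tbc1d2 at 0.93. Ndn, the necdin gene, gave 11.81 and 10.86 in KI polysomal RNA, against 7.67 and 7.66 in WT polysomal RNA, and 11.45 and 10.56 in KI total RNA, against 7.64 and 7.94 in WT total RNA. Crip2, a LIM-domain protein gene, gave 12.26 and 12.35 in KI polysomal RNA, against 7.78 and 7.72 in WT polysomal RNA, and 12.35 and 12.91 in KI total RNA, against 7.93 and 12.14 in WT total RNA. WT total replicate 2 thus read near the KI level for Crip2, between the lines for Actg2, and near the WT level for Ndn.

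For the brightest Acta2 probe the nearest profiles were Tubb6 at 0.19, and Usp10, Fam177a, Pdia5 and Lrrc1 at 0.20 each, against a median of 0.44. Tubb6, a beta tubulin gene, gave 13.85 and 13.43 in KI polysomal RNA, against 13.69 and 13.13 in WT polysomal RNA. These are small distances among flat profiles, and none of the contractile genes was among the 5.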

How the data were processed

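The values are deposited log2 signals, processed by the authors; per the submitters' processing notes lumi was used, with version, role, log base, background correction and normalization not given in the sources used here. A second deposited table held 8 columns under names that no label gives, and they were not used. Probe symbols came from the platform annotation given with the values (23978 of 25697 probes had 1 symbol, 0 had several and 1719 none), and 23962 were matched by gene ID to RefSeq (GRCm38.p6).

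The 8 arrays were modelled by their 4 group means with lmFit and eBayes of limma 3.58.1 (R 4.3.3), with no block, on single probes whose mean over all arrays was above the median. Residual degrees of freedom were 4 and prior ones 1.80. The tests were two-sided, with Benjamini-Hochberg adjustment over the 12848 probes, and no set test was made. The fit was tested on simulated data. The alternatives were no filter, a stricter filter (75th percentile), 1 probe per gene, quantile normalization, background subtraction (5th percentile on the linear scale, plus 16), replicate blocks and leaving out each array.

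The named list genes were up to 4 tested members of each list with the smallest p between the lines; other list genes are named for their absence. The 10 genes, the 10 lists beside them and the rules were chosen with earlier results of these data known. Quantile normalization moved no deposited value by more than 0.36.

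The labels give 1 source name to the polysomal and total RNA of a line that carry the same replicate number, which was taken as a shared culture. Their deviations from the group means had a correlation of 0.56 (KI) or 0.04 (WT). Between the lines only the number is shared, and the correlation was 0.22 for polysomal and 0.39 for total RNA.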

Additional observations from a re-analysis of the deposited data

How the results depend on the processing

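The count of all probes called between the lines in polysomal RNA, 15, became 62 with background subtraction, 32 with the stricter filter and 5 with 1 probe per gene, and 0 to 58 with 1 array left out. In total RNA the count, 9, became 48, 14 with the stricter filter, 16 with no filter, and 0 to 44 with 1 array left out. Its calls, 4 higher and 5 lower, were 6 and 5 after quantile normalization and 32 and 16 after background subtraction. The loading difference had 0 calls in limma (301 at an unadjusted p under 0.05), and 0 to 10 with 1 array left out, the 10 without WT total replicate 1. Polysomal against total RNA gave 1875 to 5121 calls in KI and 1903 to 5006 in WT with 1 array left out, around 4744 and 4812. The lows left out polysomal replicate 2 of the line.

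Among the contractile genes, 1 probe (Actg2) was called in polysomal RNA with background subtraction or the stricter filter, and 0 to 1 with 1 array left out. The count of 6 calls in KI was 3 with no filter, background subtraction or the stricter filter, 2 with 1 probe per gene (8 probes), and 3 to 6 with 1 array left out. The count of 6 in WT was 3 with no filter, 2 with 1 probe per gene, and 0 to 7 with 1 array left out. The replicate block by number or by culture left 6 in KI and made 7 in WT, adding Tpm1; it changed no other call among these genes. Where the cause is not the smaller set of probes or arrays, it was not tested.

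Differences that changed sign with 1 array left out were small or came from WT culture 2. Polysomal against total RNA in WT ranged over the arrays left out from -0.44 to 0.42 for Acta2 ILMN_2693895 (0.01 without WT total replicate 2), from -1.68 to 0.30 for ILMN_2710353, from -1.56 to 0.45 for ILMN_2710354 and from -1.18 to 0.37 for ILMN_2923445, each highest without WT polysomal replicate 2. Without that array, KI minus WT in polysomal RNA was -0.12 for ILMN_2693895 (highest 0.74) and the loading difference of ILMN_2923445 was -0.0095 (highest 1.53). In total RNA, KI minus WT ranged from -0.034 to 0.67 for ILMN_2693895, from -0.17 to 1.30 for Tpm1, lowest without WT total replicate 2, and from -0.16 to 0.020 for Tpm2 ILMN_2787172. For Tpm2 ILMN_2482209 in polysomal RNA it ranged from -0.17 to 0.0058.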
